A study of Mus musculus with 15 samples.

Results

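The comparison described here set 4 head samples with Twist1 deleted from 1 chromosome in the Mesp1 lineage against 3 control head samples, 7 of the 15 arrays of the study, all from mouse embryos at embryonic day 9.5 with 18 to 20 somites. The arrays were taken by their labels. The 4 CM-Het samples carried Twist1flox/+ and Mesp1Cre/+, and the 3 Control samples carried Twist1flox/+ and Mesp1+/+, so the floxed allele was common to both groups. The other 8 arrays were 4 Het samples (Twist1flox/del; Mesp1+/+) and 4 CM-CKO samples (Twist1flox/del; Mesp1Cre/+). All embryos were of mixed C57Bl/6 x 129 x BALB/c strain, and total RNA of the head was hybridised to 1-colour Illumina bead arrays. The study sought genes that depend on TWIST1 in the cranial mesoderm, and CM-Het against Control is the comparison in which Cre acts while a wild-type Twist1 allele is still present.

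TWIST1 is a basic helix-loop-helix transcription factor of mesenchyme that pairs with E proteins and binds E-boxes, the letters CANNTG. Id proteins bind E proteins and keep them from such pairs. In the mouse TWIST1 is needed in the head mesenchyme for closure of the cranial neural tube, and in people the loss of 1 copy causes a syndrome with early fusion of skull sutures. Mesp1 is expressed in early mesoderm, so Mesp1-Cre acts in the descendants of that mesoderm, which in the head include mesenchyme, muscle precursors and endothelium. Neural crest, brain and surface ectoderm lie outside that lineage and keep both Twist1 alleles in a CM-Het head. The Cre allele takes the place of 1 copy of Mesp1 on chromosome 7. The groups thus differed in Cre, in Mesp1 dose and in any strain difference linked to that locus as well as in Twist1, and these cannot be told apart by CM-Het and Control samples alone.

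Levels are log2 intensities after background correction and quantile normalization, and a gene was tested where a probe was detected on at least 3 of the 15 arrays. The 7 arrays had deposited mean signals of 341 to 434.4 and 19280 to 19793 detected probes. Their normalized level at the detection threshold was 4.71 to 4.75. Over 11625 tested genes, Pearson's r was 0.9918 to 0.9945 between arrays of 1 group (9 pairs, median 0.9927) and 0.9915 to 0.9937 between a CM-Het and a Control array (12 pairs, median 0.9926), a description across genes that are not independent. CM-Het 1 and 2 and Control 1 lay on slide 2, and CM-Het 3 and 4 and Control 2 and 3 lay on slide 3, so each difference could also be taken within a slide. The labels do not say which embryos were littermates. The limma p-values and standard errors rest on the spread within all 4 groups of the 15 arrays, Het and CM-CKO included. A head sample mixes many cell types, and fewer cells of a type cannot be told apart from less RNA per cell.

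Of the brain region markers, Otx2, Six3 and En1 were detected and tested. Prrx1, Foxc1 and Tcf21 of head mesenchyme and Tbx1 and Msc of head muscle mesoderm were tested too.

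Twist1 levels of the CM-Het and Control samples overlapped. Its gene lies on chromosome 12 at 33957671 to 33959831 (GRCm38.p6), and its 1 probe was detected on all 15 arrays. The level was 10.04, 9.76, 10.01 and 9.84 in CM-Het 1 to 4 and 9.87, 9.94 and 9.95 in Control 1 to 3. The CM-Het samples held both the highest and the lowest of the 7 values. The difference was -0.01 (95% interval -0.32 to 0.31), which is 99.3% of the Control level with an interval of 79.8% to 124% (exact permutation test, two-sided, p = 0.914 over 35 splits, of which the smallest possible p is 0.0286). The sign of so small a value was not stable, being 0.03 within slide 2 and -0.02 within slide 3. In the Het samples, in which every cell carried the deleted allele, the levels were 8.62, 9.13, 8.80 and 9.32, a mean of 51.6% of Control (interval 41.5% to 64.2%; exact permutation p = 0.0286), with no overlap with Control. The place of the probe relative to the floxed part was not used here.

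Mesp1 (chromosome 7, 79792241 to 79793590), which marks mesoderm only at earlier stages, and its neighbour Mesp2 (79810727 to 79813431), a somite segmentation gene, had 1 probe each, detected on 0 arrays. Neither could show the missing Mesp1 copy. Twist2, the closest relative of Twist1, had levels of 7.03, 7.16, 6.88 and 6.77 in CM-Het and 7.32, 7.56 and 7.18 in Control, so that every CM-Het sample lay below every Control sample. The difference was -0.40 ± 0.14 (SE; limma adjusted p = 1). It was -0.22 within slide 2 and -0.55 within slide 3.

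Of the 9 tested genes among the 11 listed Twist family members, E proteins and Ids, 8 were lower in CM-Het by sign and 0 passed the test, with a median log2 difference of -0.11 against 0.01 over all tested genes, of which 47.8% were lower by sign. Id4 had a difference of -0.41 (adjusted p = 1), with levels of 5.61 to 6.35 in CM-Het and 6.41 to 6.48 in Control. Id2, Id1 and Id3 were at -0.27, -0.20 and -0.11, and their groups overlapped. The E protein genes Tcf12, Tcf4 and Tcf3 were at 0.05, -0.04 and -0.01. The summed level of the list was 13.02 to 13.10 in CM-Het and 13.14 to 13.20 in Control, without overlap. With median scaling in place of quantile normalization the list median was 0.05, where the median of all genes was 0.131. The list median thus changed sign under that scaling but stayed below the median of all genes.

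No gene with a name passed the test between CM-Het and Control. At an adjusted p under 0.05 (limma, Benjamini-Hochberg over 11625 genes), 0 genes were called, which is 0% of those tested, and the smallest adjusted p was 0.246. At an unadjusted p under 0.05 there were 413 genes (3.55%), 224 higher (1.93%) and 189 lower (1.63%). In 811 genes (6.98%) the 4 CM-Het and the 3 Control values did not overlap. The median size of a difference was 0.0849, its 95th percentile was 0.305, and 13 genes differed by 1 or more. The 95% interval of the difference lay within 2-fold either way for 11438 genes (98.4%), and the median SE was 0.141. The values that follow are measured differences of genes that did not pass, and a p that misses the threshold does not show that 2 groups were alike.

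The 5 genes with the smallest p all lay on chromosome 7, the chromosome of Mesp1. Of the first 10 genes 6 lay there and of the first 20 genes 8, while 926 of the 11625 tested genes (7.97%) lie there. The 8 were Lrrc51, Coa4, Mogat2, Prcp, Thumpd1, Stard10, Msx3 and Crym, with starts 13.1 to 60.3 Mb beyond Mesp1. On chromosome 7, 47 of 926 genes (5.08%) had an unadjusted p under 0.05, 25 higher and 22 lower. On all other chromosomes it was 366 of 10691 (3.42%). Within 20 Mb of Mesp1 it was 11 of 136 genes (8.09%), 5 higher and 6 lower, and the groups did not overlap for 17 of these 136 (12.5%, against 6.98% of all).

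**Figure D1:**
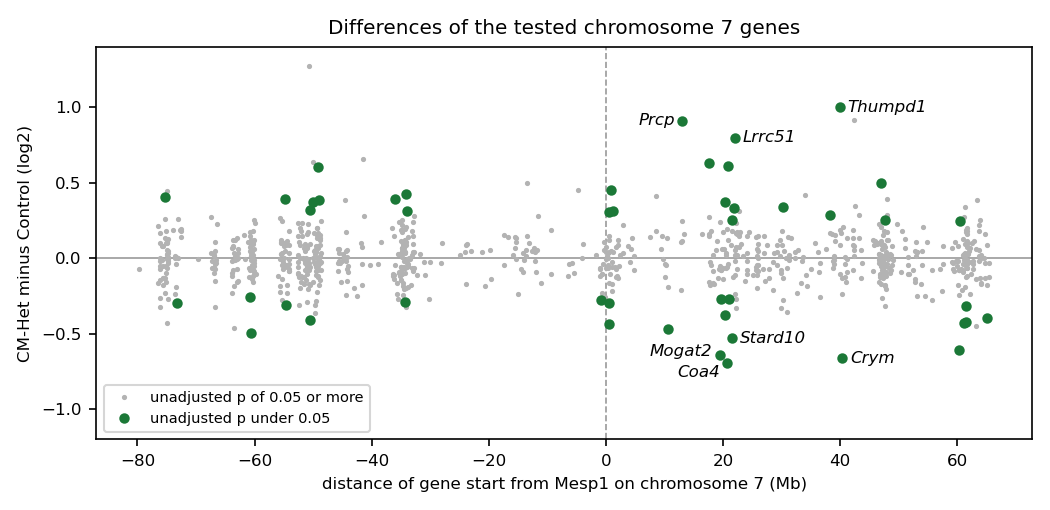
Each point is 1 of the tested chromosome 7 genes. The x axis gives the distance of its start from Mesp1 in Mb (dashed line at Mesp1), and the y axis the log2 difference of CM-Het minus Control; green points are the 47 genes with an unadjusted p under 0.05. Lrrc51 (0.80), Coa4 (-0.70), Mogat2 (-0.64) and Stard10 (-0.53) lie 19.4 to 22.1 Mb from Mesp1, and Thumpd1 (1.00) lies at 39.9 Mb.

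Prcp and Thumpd1 had levels near 1 log2 unit higher in CM-Het. Prcp encodes prolylcarboxypeptidase, a lysosomal enzyme that trims peptides, and lies on chromosome 7 at 92875253 to 92934581. Its level was 10.08, 9.99, 10.04 and 10.03 in CM-Het and 9.14, 9.13 and 9.10 in Control. The gap was many times wider than the spread within either group. The difference was 0.91 ± 0.20 (adjusted p = 0.658), a fold of 1.88, and it was 0.90 within slide 2 and 0.92 within slide 3. A dimmer Prcp probe, detected on 7 arrays, differed by 0.20. Thumpd1, which encodes a partner of the enzyme that acetylates transfer RNA, lies at 119715093 to 119723619. Its level was 10.98, 10.97, 10.81 and 10.93 in CM-Het and 10.05, 9.82 and 9.90 in Control. The difference was 1.00 ± 0.22 (adjusted p = 0.658), a fold of 2, with 0.93 and 1.01 within slides 2 and 3.

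Both genes were split in the Het samples. Prcp was at 10.20, 10.03, 9.16 and 9.22 in Het 1 to 4 and at 10.01 to 10.20 in the 4 CM-CKO samples. Thumpd1 was at 11.09, 10.90, 9.97 and 9.97 in Het 1 to 4 and at 10.66 to 10.88 in CM-CKO. Het 1 and 2 sat at the level of the Cre carriers and Het 3 and 4 at that of Control, for both genes, although no Het sample carried Cre by its label. With only the 7 arrays of CM-Het and Control in the fit, Prcp (SE 0.07, adjusted p = 0.00554) and Thumpd1 (SE 0.09, adjusted p = 0.00771) passed the test. They were the 2 genes that did.

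The windows around the starts of these genes and of Hoxa2, described further on, are shown because TWIST1 binds E-boxes. They are RefSeq sequences of GRCm38.p6 from 250 bases before to 50 bases after the start, printed 5′ to 3′ on the gene's strand, with each CANNTG in capitals. The Prcp window is chr7:92875003-92875302 (plus strand), the Thumpd1 window chr7:119723570-119723869 (minus strand) and the Hoxa2 window chr6:52164782-52165081 (minus strand).
Prcp: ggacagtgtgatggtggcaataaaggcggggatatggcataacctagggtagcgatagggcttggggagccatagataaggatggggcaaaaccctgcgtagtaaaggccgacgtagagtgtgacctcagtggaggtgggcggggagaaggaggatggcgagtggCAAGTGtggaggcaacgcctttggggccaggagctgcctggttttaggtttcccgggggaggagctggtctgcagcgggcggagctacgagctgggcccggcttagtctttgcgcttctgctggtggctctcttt
Thumpd1: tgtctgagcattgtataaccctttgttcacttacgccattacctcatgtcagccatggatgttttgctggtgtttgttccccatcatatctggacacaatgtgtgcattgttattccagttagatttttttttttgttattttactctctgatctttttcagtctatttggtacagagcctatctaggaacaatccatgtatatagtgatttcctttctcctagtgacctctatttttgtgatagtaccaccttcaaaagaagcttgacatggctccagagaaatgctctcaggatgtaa
Hoxa2: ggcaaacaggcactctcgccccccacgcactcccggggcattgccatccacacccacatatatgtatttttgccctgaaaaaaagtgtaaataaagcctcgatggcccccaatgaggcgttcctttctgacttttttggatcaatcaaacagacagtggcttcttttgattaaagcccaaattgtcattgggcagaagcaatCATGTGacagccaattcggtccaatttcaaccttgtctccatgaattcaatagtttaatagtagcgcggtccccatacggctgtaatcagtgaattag

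The Prcp and Hoxa2 windows each held 1 CANNTG and the Thumpd1 window held 0. CANNTG reads the same on both strands, and 72.3% of 32851 mouse windows of this length hold it (median 1 per window). The form CATCTG or CAGATG (1 on each strand) was in 17.2% of windows and in none of these 3. Of the 20 genes with the smallest p, 10 higher and 10 lower, 16 had a window, 8 of them with CANNTG and 1 with CATCTG or CAGATG. A match in these letters is a description and not a binding site.

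Lrrc51, Coa4, Mogat2 and Stard10 lie 19.4 to 22.1 Mb from Mesp1, and in all 4 CM-CKO differed from Het in the same direction. Lrrc51 (101912989 to 101933918), which encodes a leucine-rich repeat protein, was at 7.12, 7.13, 7.09 and 6.95 in CM-Het and 6.10, 6.34 and 6.38 in Control. Its difference of 0.80 ± 0.13 had the smallest p of all genes (2.12e-05, adjusted p = 0.246). In the 8 other arrays Lrrc51 was at 6.09 to 6.45 in Het and 7.19 to 7.71 in CM-CKO, a rise of 1.26 (adjusted p = 1.34e-05), and all samples with Cre lay above all samples without it.

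Coa4 (100537100 to 100540372), an assembly factor of cytochrome c oxidase, was at 8.55, 8.56, 8.21 and 8.07 in CM-Het and 9.12, 9.14 and 8.88 in Control. The groups did not overlap, and the difference was -0.70 ± 0.12 (adjusted p = 0.263). Mogat2 (99219084 to 99238611), which makes diacylglycerol from monoacylglycerol, was at 8.39, 8.25, 8.46 and 8.30 in CM-Het and 9.10, 8.76 and 9.11 in Control. Its difference was -0.64 ± 0.13 (adjusted p = 0.544), and a dimmer probe gave -0.91. Stard10 (101317086 to 101346626), a phospholipid transfer protein, was at 7.36 to 7.52 in CM-Het and 7.89 to 8.13 in Control, a difference of -0.53 (adjusted p = 0.658), with a dimmer probe at -0.15. Between CM-CKO and Het these 3 genes fell, Coa4 by 0.54 (adjusted p = 0.00948), Mogat2 by 1.19 (adjusted p = 1.61e-05) and Stard10 by 0.57 (adjusted p = 0.00569).

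Crym, a cytosolic thyroid hormone binding protein gene 40.4 Mb from Mesp1, was at 7.11 to 7.59 in CM-Het and 7.71 to 8.37 in Control, a difference of -0.66 ± 0.18 (adjusted p = 1). Between CM-CKO and Het it fell by 0.99 (adjusted p = 0.00193). Msx3, a homeobox gene of the dorsal neural tube 60.3 Mb from Mesp1, was at 8.33, 8.18, 8.06 and 7.88 in CM-Het and 8.57, 8.90 and 8.70 in Control. Its groups did not overlap, and its 3 probes gave differences of -0.61, -0.65 and -0.39.

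**Figure D2:**
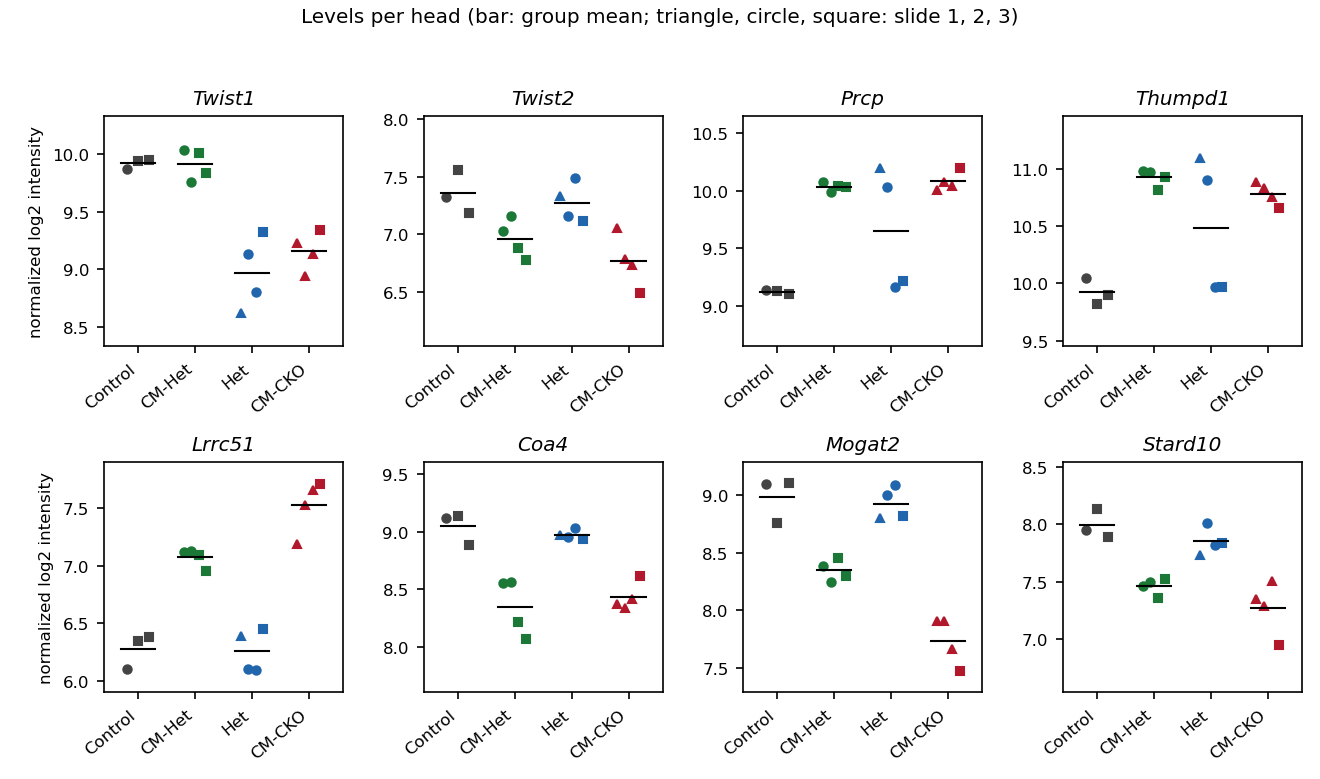
Normalized log2 intensity per head sample in Control, CM-Het, Het and CM-CKO for Twist1, Twist2 and 6 chromosome 7 genes; each point is 1 sample, its shape the slide, and the bar the group mean. Twist1 overlaps between CM-Het (9.76 to 10.04) and Control (9.87 to 9.95), whereas Prcp, Thumpd1, Lrrc51, Coa4, Mogat2 and Stard10 do not overlap, and Het 1 and 2 sit apart from Het 3 and 4 in Prcp and Thumpd1.

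CM-CKO minus Het uses levels of none of the 7 arrays, so each gene's direction could be read a second time. Its calls use the same estimate of each gene's spread as CM-Het against Control. The shares called are thus not a separate reading. Of the 47 chromosome 7 genes with an unadjusted p under 0.05, 33 (70.2%) had the same sign there, and 12 (25.5%) were called there, all 12 with the same sign. Of the 366 such genes elsewhere, 181 (49.5%) had the same sign and 56 (15.3%) were called, 32 of them with the same sign. Over all tested genes the sign was the same in 48.4% and CM-CKO against Het called 985 (8.47%). Nearer Mesp1, Iqgap1, a cytoskeletal scaffold gene 0.919 Mb away, was at 0.45 here and rose by 0.42 there (adjusted p = 0.0415). Unc45a, a myosin chaperone gene 0.533 Mb away, was at -0.30 here and fell by 0.60 there (adjusted p = 0.00691). Farther from Mesp1, at 19.7 Mb, the ribosomal protein gene Rps3 was at -0.27 here and fell by 0.28 there (adjusted p = 0.0295).

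Genes that pattern the hindbrain were lower by sign in the CM-Het samples, by most in Hoxb2, Hoxb1 and Hoxa2. All 7 tested members of this list (13 listed) were lower by sign, against 47.8% of all genes. Of the 7, 4 had an unadjusted p under 0.05, 0 passed the test, and the median difference was -0.56. The summed level of the list was 11.78 to 11.94 in CM-Het and 11.91 to 12.04 in Control and overlapped. Hoxa2, which patterns hindbrain segments and the hyoid arch, was at 7.09, 7.00, 6.87 and 6.48 in CM-Het and 7.96, 7.92 and 7.98 in Control. Control samples were nearly equal and every CM-Het sample was lower. The difference was -1.09 ± 0.24 (adjusted p = 0.658), a fold of 2.13, and both Hoxa2 probes gave -1.09. It was -0.91 within slide 2 and -1.27 within slide 3.

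Hoxb2, its close relative on chromosome 11 (96351632 to 96354020), was at 5.24, 4.98, 5.52 and 4.62 in CM-Het and 6.97, 6.12 and 6.92 in Control. It had the largest lower value of all tested genes, -1.58 ± 0.37 (adjusted p = 0.821), and was detected in 3 of 4 CM-Het samples. Hoxb1, the neighbouring gene (96365746 to 96368254) that marks a single hindbrain segment, was at 4.33, 4.53, 4.30 and 4.26 in CM-Het and 6.13, 5.07 and 5.61 in Control. It was not detected in any CM-Het sample and was detected in all 3 Control samples, so by this probe it was at least 1.84-fold lower (adjusted p = 1). A dimmer Hoxb1 probe was likewise detected in 0 of 4 CM-Het and 3 of 3 Control samples and gave a fitted difference of -0.76. A bound of this kind sets the bright group against the signal at the detection threshold. Egr2, a zinc finger gene of hindbrain segmentation, was at 4.26 to 5.11 in CM-Het and 4.55 to 5.47 in Control, a difference of -0.56 with overlap.

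Hoxa3, Irx3 and Gbx2, the other tested members, were at -0.15, -0.06 and -0.02, and their groups overlapped. Outside the comparison, Hoxb1 was also low in Het 3 (4.60, against 6.13 to 6.31 in the other Het samples) and in CM-CKO 4 (4.47, against 5.39 to 6.31). Hoxb2 was at 5.40 and Hoxa2 at 6.72 in CM-CKO 4, below the other CM-CKO samples. The low levels were thus not confined to CM-Het. CM-CKO and Het did not differ by the test in any of the 7 genes, and the median of the list there was -0.17. The list median in CM-Het was -0.90 within slide 2, -0.32 within slide 3, -0.84 without Control 2, -0.38 without Control 3 and -0.19 without background correction, which leaves dim signals closer to each other. On that scale Hoxa2 was at -0.72 and Hoxb2 at -0.65.

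Where the head was cut from the trunk is not stated in the labels, and its part in the hindbrain values was not tested. Of the 17 listed trunk and somite genes, 6 were tested, with differences of -0.38 to 0.29 (median 0.06) and summed levels of 7.39 to 7.62 in CM-Het and 7.40 to 7.72 in Control. Hoxb9 had no kept probe. Hoxd11, a posterior Hox gene that is no member of either list, was not detected in any CM-Het sample and was detected in all 3 Control samples. By this probe it was at least 1.14-fold lower (levels of 4.32 to 4.52 and 4.85 to 4.98, near the detection threshold). Its other probe was detected in neither group and gave -0.04.

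**Figure D3:**
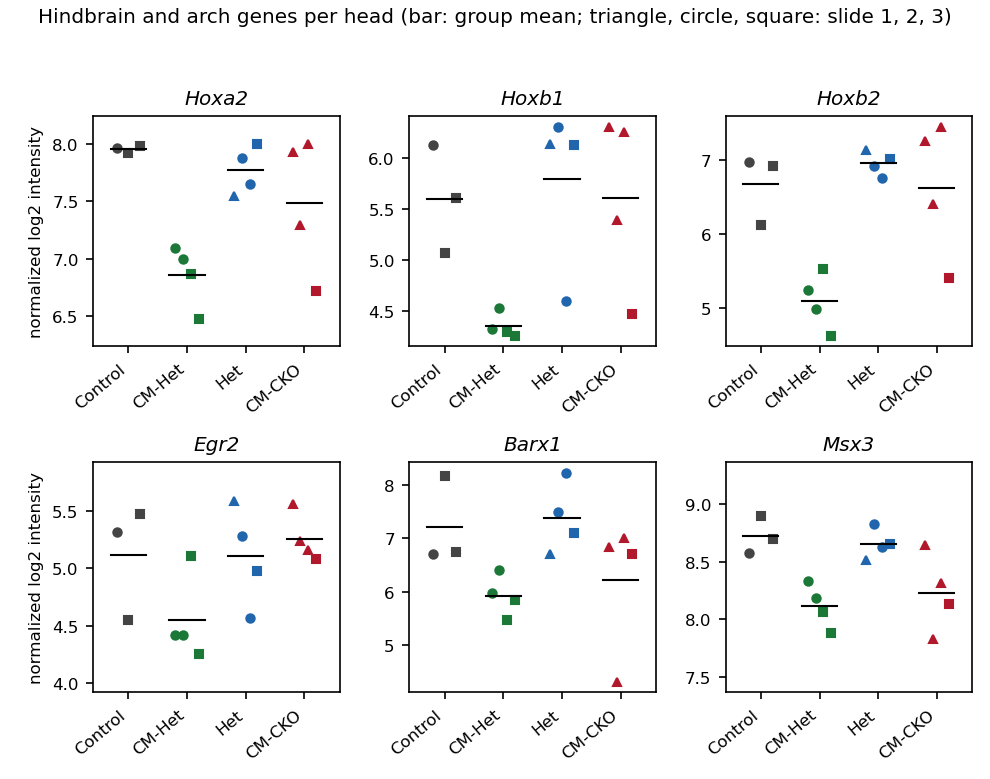
Normalized log2 intensity per head sample for Hoxa2, Hoxb1, Hoxb2, Egr2, Barx1 and Msx3 in the 4 groups; each point is 1 sample, its shape the slide, and the bar the group mean. CM-Het lies below Control without overlap in Hoxa2, Hoxb1, Hoxb2, Barx1 and Msx3, and overlaps it in Egr2; CM-CKO 4 lies low in Hoxa2, Hoxb1 and Hoxb2.

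The remaining genes among the 10 higher and 10 lower with the smallest p had differences of -0.46 to 0.74, and their groups did not overlap. Lgals1, which encodes the lectin galectin-1, was at 9.55, 9.25, 9.25 and 9.32 in CM-Het and 9.66, 9.92 and 9.76 in Control, a difference of -0.43 ± 0.11 (adjusted p = 1). Pla2r1, a phospholipase receptor gene, was at -0.46 (adjusted p = 0.658) and was detected in 2 of 4 CM-Het samples. Hps6, needed for lysosome-related organelles, was at 6.67 to 6.85 in CM-Het and 5.93 to 6.38 in Control, a difference of 0.62. Lcor, a nuclear receptor corepressor, was at 0.47, while its other kept probes gave 0.19 and -0.07. Snrnp48, of the minor spliceosome, was at 0.56, while its other kept probes gave -0.12 and 0.23. Pttg1, the anaphase inhibitor securin, was at 5.09 to 5.76 in CM-Het and 4.47 to 4.86 in Control, a difference of 0.74, and was detected in 1 of 3 Control samples. Insl3, an insulin-like hormone gene, and Rps6kl1, a kinase-like gene, were at 0.49 and 0.39, also near the detection threshold. Arsk, a lysosomal sulfatase gene, was detected in no Control sample and in all 4 CM-Het samples. By its kept probe it was at least 1.19-fold higher (levels of 4.75 to 5.19 and 4.42 to 4.66, near the detection threshold). That probe was detected on 5 arrays of the whole study, so it met the minimum of 3 only through the CM-Het samples. The contrast in detection was thus partly set by the filter. The other Arsk probes were detected in neither group and gave 0.03 and -0.01.

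The head mesenchyme and head muscle lists had medians near 0. Of 20 tested mesenchyme and epithelial-mesenchymal transition factors (24 listed), 0 passed the test and 0 had an unadjusted p under 0.05, with a median of -0.04. Prrx1, Foxc1, Snai1 and Zeb1, regulators of mesenchyme, were at 0.00, -0.04, -0.07 and -0.07. Tcf21, a regulator of head muscle and mesenchyme, was at 6.04 to 6.29 in CM-Het and 5.80 to 5.93 in Control, a difference of 0.31 (adjusted p = 1). Of 12 head mesoderm and head muscle regulators (18 listed), 0 passed and 2 had an unadjusted p under 0.05, with a median of 0.03. Tbx1, a T-box gene of head mesoderm, was at 7.83, 7.82, 7.56 and 7.69 in CM-Het and 7.29, 7.41 and 7.15 in Control. Every CM-Het value lay above every Control value, by 0.44 ± 0.15 on average (adjusted p = 1). Mef2c, a muscle and vascular regulator, was at 0.43 with overlap, 0.14 within slide 2 and 0.53 within slide 3.

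Genes tied to skull sutures did not pass either: 0 of 15 (20 listed), with a median of -0.02. Sp7, a bone-forming transcription factor, was at 5.11 to 5.46 in CM-Het and 4.71 to 5.20 in Control, a difference of 0.37 with overlap. Jag1, Fgfr2, Fgfr1 and Efnb1 were at 0.38, -0.10, 0.08 and -0.22. Of 27 extracellular matrix genes (31 listed) 0 passed, and the median was 0.03. Lamc1, a laminin chain, was at 0.28, and the collagens Col6a1, Col3a1 and Col1a1 were at -0.33, -0.32 and -0.33. The 12 tested smooth muscle genes had a median of 0.02, the 15 integrins and cadherins one of 0.03 and the 14 PDGF, pericyte and CXCL12 genes one of -0.06, with 0 calls.

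Endothelial genes were slightly higher by sign in CM-Het. Of 24 tested (26 listed), 21 were above 0, against 52.2% of all genes, with a median of 0.13 and 0 calls. The median was 0.10 to 0.14 when 1 sample was left out and 0.07 without background correction. Their summed level was 13.32 to 13.43 in CM-Het and 13.22 to 13.26 in Control, without overlap. Tek, the angiopoietin receptor, was at 8.58, 8.66, 8.49 and 8.65 in CM-Het and 8.20, 8.23 and 8.33 in Control. The difference was 0.34 ± 0.12 (adjusted p = 1), with 0.42 and 0.29 within slides 2 and 3. Etv2, which starts the endothelial and blood programme and lies on chromosome 7 on the other side of Mesp1 from Prcp, was at 0.61 ± 0.21 with overlap. The defining genes Pecam1, Kdr and Cdh5 were at 0.04, 0.04 and 0.08. The 16 flow-responsive and arterial genes had a median of 0.10 (0.01 within slide 2), with Klf2 at -0.27 and Gja4 at 0.23.

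Red cell genes were slightly lower by sign. Of 24 tested red cell genes (30 listed), 21 were lower by sign, 0 had an unadjusted p under 0.05, and the median was -0.13. That median was -0.28 without Control 3, -0.06 without Control 1 and -0.06 without CM-Het 3, so its size rested on single samples. Their summed level was 15.34 to 15.82 in CM-Het and 15.63 to 15.89 in Control and overlapped. Alas2, the first enzyme of erythroid haem synthesis, was at 8.43, 8.33, 7.48 and 8.08 in CM-Het and 8.64, 8.57 and 7.81 in Control, so that 1 sample of each group stood low. Hba-x, an embryonic globin gene, was at 13.52, 13.42, 12.81 and 13.40 in CM-Het and 13.36 to 13.65 in Control. The embryonic globins Hbb-y and Hbb-bh1 were at 0.04 and -0.02. The 13 megakaryocyte genes, 6 higher and 7 lower, had a median of -0.11, which was 0.02 without Control 3. The 5 macrophage genes, 2 higher and 3 lower, had a median of -0.11, which was 0.03 without Control 2, 0.01 without Control 3 and 0.02 without CM-Het 1. Neither list thus had a settled sign, and Csf1r had no kept probe. Mrc1, a macrophage receptor also known from endothelium, was at 0.49, with levels of 4.66 to 5.25 and 4.39 to 4.81 near the detection threshold. The 5 tested cardiomyocyte genes of 20 listed had a median of -0.03, and Myl7 and Tnnt2 had no kept probe.

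**Figure D4:**
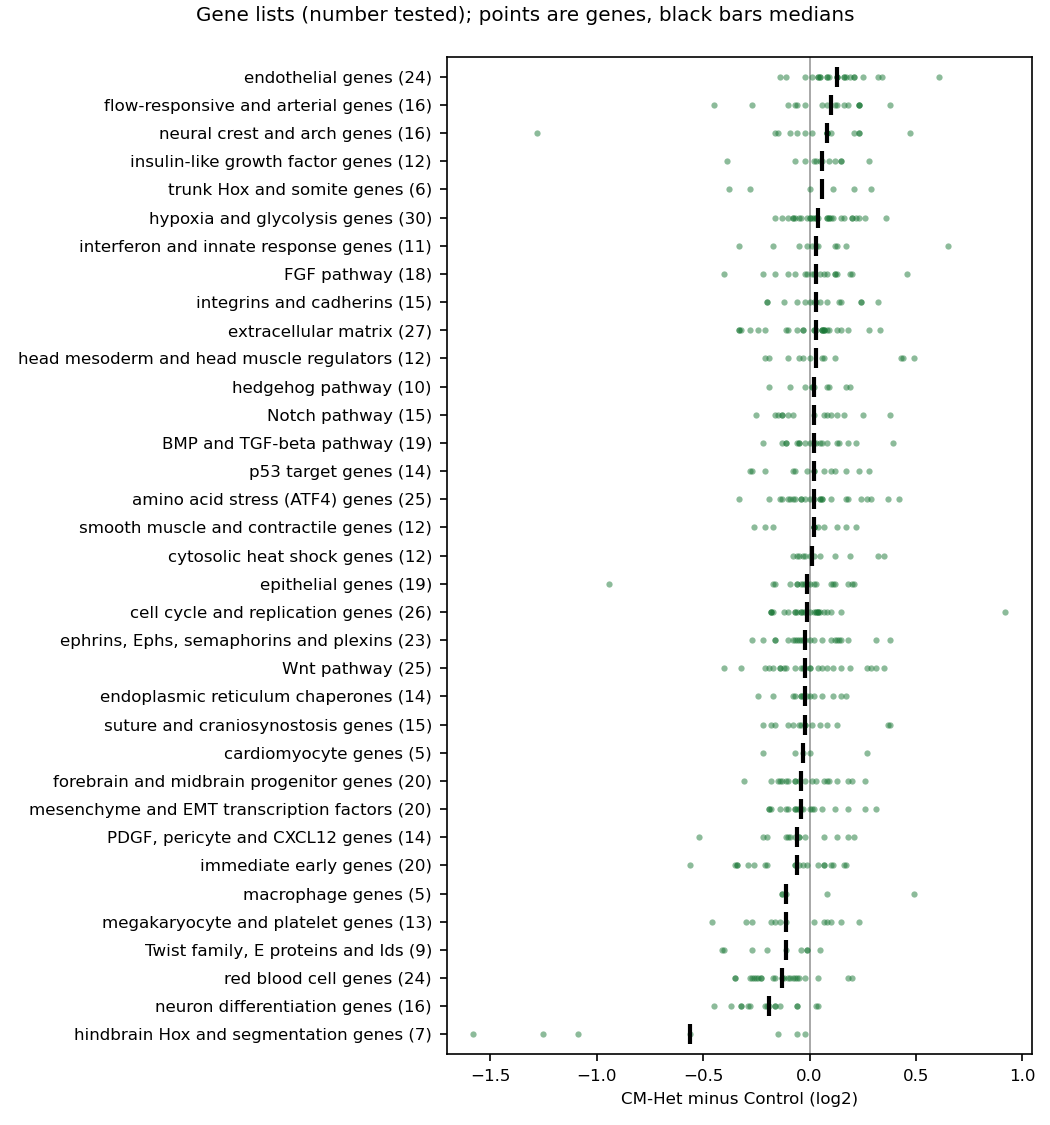
Each row is a gene list with its number of tested genes; green points are the log2 differences of CM-Het minus Control of its genes and black bars their medians. The hindbrain list has the lowest median (-0.56), neuron differentiation genes are at -0.19 and red blood cell genes at -0.13, endothelial genes are at 0.13, and the medians of the other lists drawn lie between -0.11 and 0.10. The 4 sex-linked genes are not drawn.

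Tissues outside the Mesp1 lineage were read as well. Of 16 tested neuron differentiation genes (23 listed), 14 were lower by sign, 0 passed, 1 had an unadjusted p under 0.05, and the median was -0.19. It was -0.05 without Control 2, -0.30 without Control 3, -0.02 within slide 2 and -0.26 within slide 3. Elavl3, an RNA-binding protein of new neurons, was at 7.11, 7.58, 7.34 and 7.26 in CM-Het and 7.55, 8.21 and 7.56 in Control. CM-Het 2 lay among the Control values, and the difference was -0.45 ± 0.19 (adjusted p = 1). The summed level of the list was 11.26 to 11.54 in CM-Het and 11.40 to 11.84 in Control. The 20 tested forebrain and midbrain genes had a median of -0.04, with Otx2 at 0.18 and Zic2 at -0.31. Fgf15, a growth factor gene of the neural tube on chromosome 7, was at 8.04 to 8.24 in CM-Het and 8.47 to 8.55 in Control, a difference of -0.40 without overlap (adjusted p = 1).

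Among 16 tested neural crest and arch genes (23 listed) the median was 0.08 (0.00 without CM-Het 1) and 0 passed. Sox10, a regulator of crest and glia, was at 9.11, 8.83, 8.97 and 8.67 in CM-Het and 8.68, 8.16 and 8.44 in Control, a difference of 0.47 with overlap of 1 sample. Barx1, a homeobox gene of arch and stomach mesenchyme, was at 5.97, 6.41, 5.47 and 5.85 in CM-Het and 6.71, 8.16 and 6.75 in Control. Its groups did not overlap, and Control 2 stood well above the other samples. The difference was -1.28 ± 0.55 (adjusted p = 1), -0.52 within slide 2 and -1.79 within slide 3. The 19 tested epithelial genes had a median of -0.01. Esrp1, an epithelial splicing factor gene, was at 7.69, 7.67, 7.93 and 9.15 in CM-Het and 8.96 to 9.19 in Control, so that CM-Het 4 was at the Control level and the others were lower.

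Signalling pathways had medians within 0.06 of 0, with 0 calls in each. The medians were 0.03 for 18 FGF genes, 0.02 for 19 BMP and TGF-beta genes, -0.02 for 25 Wnt genes, 0.02 for 15 Notch genes and 0.02 for 10 hedgehog genes. They were -0.02 for 23 ephrin, Eph, semaphorin and plexin genes and 0.06 for 12 insulin-like growth factor genes. Ltbp1, which tethers TGF-beta to the matrix, was at 6.57, 6.54, 6.68 and 6.45 in CM-Het and 6.08, 6.19 and 6.24 in Control. Its groups did not overlap, and the difference was 0.39 ± 0.11 (adjusted p = 1). Wnt5b, a Wnt ligand gene, was at 7.82 to 7.87 in CM-Het and 7.24 to 7.73 in Control, a difference of 0.35. Igfbp3, which binds insulin-like growth factors, was at 7.35 to 7.67 and 7.16 to 7.23, a difference of 0.28.

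Stress and growth lists had medians near 0 too. The medians were 0.04 for 30 hypoxia and glycolysis genes, 0.02 for 25 amino acid stress (ATF4) genes, -0.02 for 14 endoplasmic reticulum chaperones, 0.01 for 12 heat shock genes and -0.06 for 20 immediate early genes. They were 0.02 for 14 p53 targets, -0.01 for 26 cell cycle genes and 0.03 for 11 interferon genes, with 0 calls in each. Stat2, a signal carrier of the interferon response, was at 5.05 to 5.74 in CM-Het and 4.67 to 4.89 in Control, where 1 of 3 samples had it detected. Its difference was 0.65 ± 0.19 (adjusted p = 1). Ddit4, induced by hypoxia and stress, was at 0.36 and Plod2, a collagen-modifying enzyme gene, at 0.26.

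The genes called between CM-CKO and Het had medians near 0 in CM-Het against Control. CM-CKO 1 to 3 and Het 1 lay on slide 1, Het 2 and 3 on slide 2, and CM-CKO 4 and Het 4 on slide 3. Genotype was thus partly confounded with slide in the comparison of CM-CKO with Het. The 482 genes called higher in CM-CKO than Het (4.15% of tested genes; median there 0.80) had a median of -0.01 in CM-Het against Control, with quartiles of -0.11 and 0.10, and 19 (3.94%) had an unadjusted p under 0.05. The 503 called lower (4.33%, with a median there of -0.51) had a median of 0.00, with quartiles of -0.11 and 0.09. Of these 503, 49 (9.74%) had an unadjusted p under 0.05, against 3.55% of all genes. Both comparisons use the same estimate of each gene's spread, so a gene with a small spread can pass in both. These shares are thus not a separate reading. Of the 185 that rose at least 2-fold in CM-CKO, 3 had an unadjusted p under 0.05 in CM-Het, and of the 20 that fell at least 2-fold, 3 did.

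**Figure D5:**
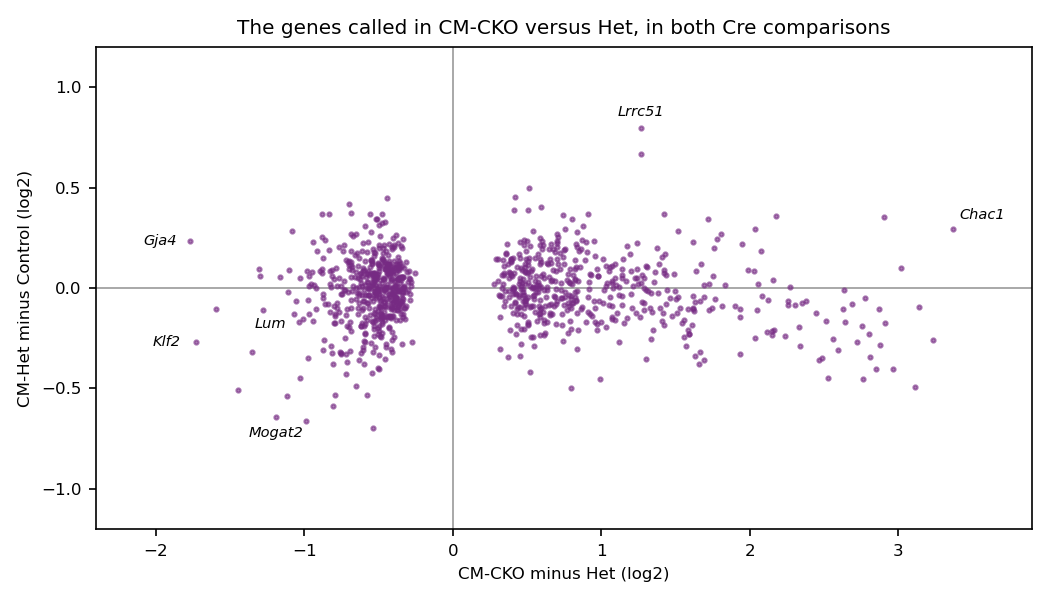
Each point is 1 of the 985 genes called between CM-CKO and Het. The x axis gives its log2 difference of CM-CKO minus Het and the y axis that of CM-Het minus Control. Points spread along the x axis, for example Chac1 (3.37 and 0.29) and Gja4 (-1.77 and 0.23), and Lrrc51 (1.26 and 0.80) and Mogat2 (-1.19 and -0.64) lie away from 0 on both.

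The difference between both Cre comparisons was tested as an interaction, the CM-CKO minus Het difference less the CM-Het minus Control difference. It called 124 genes (1.07%), 78 above 0 and 46 below, and in 123 of them the CM-CKO minus Het difference was the larger in size. All 124 were also called between CM-CKO and Het. Of the genes described next, all but Tek were picked for their large CM-CKO minus Het difference, which is a term of this test. Chac1, an ATF4 target that degrades glutathione, was at 5.85, 5.76, 6.08 and 6.23 in CM-Het and 5.71, 5.46 and 5.90 in Control, against 8.62 to 9.73 in CM-CKO and 5.59 to 5.99 in Het. Its interaction was 3.07 (adjusted p = 0.000129). Klf2, a flow-induced endothelial factor, was at 6.60 to 7.08 in CM-Het, 6.98 to 7.29 in Control and 5.06 to 5.62 in CM-CKO, an interaction of -1.46 (adjusted p = 0.00404). Gja4, an arterial gap junction gene, had an interaction of -2.00 (adjusted p = 0.00029), and Lum, a collagen-binding proteoglycan gene, one of -1.17 (adjusted p = 0.000365). Tek was higher in CM-Het (0.34) and fell in CM-CKO by 0.52 (adjusted p = 0.00838), an interaction of -0.86 (adjusted p = 0.017).

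Cygb, which encodes the oxygen-binding protein cytoglobin, was lower with Cre in both comparisons. It was at 5.70, 5.62, 5.79 and 5.70 in CM-Het and 6.47, 6.28 and 5.89 in Control, a difference of -0.51 ± 0.14 (adjusted p = 1). The groups did not overlap, and Control 3 was close to the CM-Het values. Between CM-CKO (4.57 to 4.93) and Het (5.95 to 6.37) it fell by 1.45, and the interaction was -0.94 (adjusted p = 0.0278). Of the other genes with the largest rises between CM-CKO and Het, the red cell genes Alas2, Kel, Slc4a1 and Sptb, at 2.87 to 3.23 there, were at -0.28 to -0.09 in CM-Het. Trib3, a stress-induced pseudokinase, was at 3.02 there and 0.10 here. Hspa1a, the inducible heat shock chaperone, was at 2.90 there and 0.35 here. It was detected in no Control sample and in 3 CM-Het samples, with CM-Het levels of 4.52 to 4.98 near the detection threshold. By this probe it was at least 1.04-fold higher here, while its other probes gave -0.02 and 0.01.

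Sex-linked genes were uneven between the groups within each slide, and their 4 tested members did not pass the test. Xist, the RNA of the inactive X chromosome, was at 10.38 and 10.42 in CM-Het 3 and 4 and at 10.40 in Control 1. It was at 4.56 and 4.47 in CM-Het 1 and 2 and at 4.31 and 4.39 in Control 2 and 3. High Xist was thus seen in 2 of 4 CM-Het and 1 of 3 Control samples, and on each slide the CM-Het and the Control samples were opposite in it. Within-slide differences of sex-linked genes follow that arrangement. Prcp, Thumpd1, Lrrc51 and Hoxa2 had the same direction on both slides, but no fit included sex. The part of sex in the differences of these and all other genes was not tested.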

How the data were processed

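Head RNA of mouse embryos was measured on 1-colour Illumina arrays in 4 CM-Het, 3 Control, 4 Het and 4 CM-CKO samples. The deposited signals were intensity values, neither normalized nor background-subtracted, with a detection p-value per probe and array, per the file headers, and the authors' value table held log2 signals. The sources used here do not name the software that made them. The deposited detection p-values were out of row order (74.4% to 75.6% of an array by over 0.05) and were put back by matching ranks on each array. Het 1 had its value table column in place of detection p-values, so it took the average by rank of the others. In the value table, 42477 probes matched the quantile-normalized signals within 0.02 and 2804 did not. Every probe of the 20 leading genes matched.

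Background was removed by normexp, using detection p-values to infer the negative controls (nec, offset 16), and quantile normalization and log2 followed. Probes stayed in at detection p under 0.05 on at least 3 arrays (21869 of 45281). Of all probes 34885 had 1 gene name, 18 several and 10378 none, and 34807 matched RefSeq (GRCm38.p6). Each gene was read by its brightest kept probe (11625 genes, 4669 with more than 1). Probes without a name were fitted apart. The 4 groups were fitted together by genotype alone by lmFit, contrasts.fit and eBayes of limma 3.58.1 (R 4.3.3), which leaves 11 residual degrees of freedom, with Benjamini-Hochberg adjustment and a threshold of 0.05. The steps were tested on simulated data. Twist1 was compared by an exact permutation test. The number of arrays limits the precision, and errors are standard errors. A summed level is the log2 of the summed linear levels of a list. Figures were drawn with matplotlib 3.10.9.

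The named genes are Twist1, Mesp1 and Mesp2, the 10 smallest p in each direction because fewer than 20 genes were called, the 2 smallest p of each gene list, and the 10 largest rises and falls of CM-CKO against Het. Other list members and chromosome 7 genes were named after their values were seen, as were Hoxb1, Egr2, Iqgap1, Unc45a, Rps3, Rsf1 and Xist. The comparison, gene lists and rule were chosen with earlier results of these data known. Same-numbered CM-Het and Control samples had correlations of their deviations of 0.0865, 0.0521 and 0.159. Each was the highest of that CM-Het sample with any Control sample. The labels do not say which embryos were littermates, and the numbers were not taken as pairs in the main fit.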

Additional observations from a re-analysis of the deposited data

Results flagged for a closer look

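Of the 108 named genes tested for a CM-Het sample far from the other 3, 2 had one, and chance gives about 1 in 20. Hba-x was at 12.81 in CM-Het 3 and at 13.40 to 13.52 in the others. Tpm2, a tropomyosin gene, was at 8.03 in CM-Het 1 and at 8.20 to 8.22 in the others.

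In 19 named genes the difference of CM-CKO minus Het departed from that of CM-Het minus Control by the interaction test (limma, adjusted p under 0.05). All but Ddit4 and Tek were named for their large CM-CKO minus Het difference. That difference is a term of the test, so their passing was partly set by the choice. The departure was above 0 in Ncf4 (3.61), Alas2 (3.49), Slc38a5 (3.37), Kel (3.23), Slc4a1 (3.16), Cited4 (3.08), Chac1 (3.07), Sptb (2.97), Trib3 (2.92) and Ddit4 (1.82). It was below 0 in Tek (-0.86), Cygb (-0.94), Fam162b (-1.03), Lum (-1.17), Gja5 (-1.36), Txnip (-1.40), Klf2 (-1.46), Aplnr (-1.49) and Gja4 (-2.00).

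Among 3235 kept probes without a single gene name, 191 (5.9%) had an unadjusted p under 0.05 and 1 was called. Probe ILMN_2702519 was at 5.68, 5.79, 5.32 and 5.61 in CM-Het and 4.64, 4.30 and 4.42 in Control, where it was not detected on any array, so it was at least 1.82-fold higher (fitted difference 1.15 ± 0.15, limma adjusted p = 0.0045). It was at 4.51 to 5.03 in Het and 5.01 to 5.47 in CM-CKO, a difference of 0.50 (adjusted p = 0.0623).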

How the results depend on the processing

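The count of 0 called genes between CM-Het and Control held under every alternative run (413 at an unadjusted p under 0.05) except 4. The mean of the kept probes called 2 (Mogat2, adjusted p = 0.00795, and Rsf1, adjusted p = 0.0392, both within 20 Mb of Mesp1, so 2 there). The fit of only the arrays compared called 2 (Prcp and Thumpd1, of which 1 lies within 20 Mb). Slide 2 alone called 4 (Eif2s3y, Xist, Rmdn3, Tmem68) and slide 3 alone called 3 (Eif2s3y, Kdm5d, Xist). Leaving out any 1 sample also called 0. The replicate block called 0, alone and with the slide block. Each CM-Het sample numbered 1 to 3 correlated best with the Control sample of its own number, a hint from the data only.

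Twist1 (-0.01) was at 0.16 with median scaling, 0.01 with the slide block, 0.03 within slide 2 and 0.08 with the replicate block and slide block, and at -0.05 to 0.04 when 1 sample was left out. Median scaling moved the median of all genes from 0.0067 to 0.131 and also turned Lgmn (0.03) and Rrm2 (0.00). Within slide 2, Myl4 (-0.28), Dnajb1 (-0.02), Cdx1 (0.28), Tagln3 (0.06), Kcnj8 (0.26), Uty (0.39) and Eif2s3y (3.69) turned, as did Myl4 (-0.02) and Eif2s3y (0.10) with the replicate block and slide block.

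CM-CKO against Het called 985 genes, 582 with median scaling, 333 with only the arrays compared and 504 to 1272 when 1 sample was left out (504 without CM-CKO 2). The interaction called 124, 263 with the slide block, 397 within slide 3 and 57 to 330 when 1 sample was left out (57 without CM-Het 1, 330 without CM-CKO 3). The cause was not tested. For the 20 leading genes, 557 of 560 alternative values kept their direction and side of the threshold. Of 1900 values of named list members 1888 did, and of 520 interaction values 426 did, while 91 lost the call. Leaving out a Het or CM-CKO sample cannot change a CM-Het minus Control difference or list median, so part of this agreement was fixed. For leading genes and list members, the side kept was that of not passing. Sizes moved more, with Hoxb2 at -1.85 to -0.65 and Pttg1 at 0.22 to 0.95 over the other alternatives. Of 1008 list medians 18 moved by more than the spread between samples. The unnamed probe ILMN_2702519 was no longer called within slide 2 (1.10), within slide 3 (1.11), with the replicate block and slide block (1.06) or without Control 2 (1.07, adjusted p = 0.067). Differences near the detection threshold, where normexp stretches dim signals, are the least certain.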
